A study of Homo sapiens with 8 samples.

Results

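Distal regions lost in both lines are stretches of accessible chromatin away from gene ends that were listed as ATAC-seq peaks in every DMSO sample of the human lung cancer lines H1975 and HCC44 and in none of the samples treated with ACBI1. ATAC-seq marks open chromatin by the insertion of a transposase. Peaks of all 8 lists that overlapped by at least 1 bp on chromosomes 1 to 22 and X were merged, which gave 69078 regions. A region was a member when it had a peak in all 4 DMSO lists, in 0 of the 4 ACBI1 lists, and stayed clear of the 1 kb before and after the start and the end of every protein-coding gene. This left 7060 members. They were 37.4% of the 18897 distal regions with a peak in all 4 DMSO lists, against 2.27% of the 10183 gene-boundary regions and 25.1% of all 29080 regions with such peaks. Because the rule chose regions on the presence and absence of peaks, the loss itself is a description and carries no test.

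Both lines are non-small cell lung cancer lines grown in the same medium, and the labels give the genotype of each as WT. Cells of each line received either the solvent DMSO or ACBI1 for 96 h, ACBI1 at 1 mM, the dose printed in the labels, with 2 replicates in each of the 4 groups. No inactive control compound was among the samples. Nothing in the labels says whether replicates came from separate cultures, so p-values measure only the spread between these samples, which may be technical. On the chromosomes used, the DMSO lists held 41003 to 50323 peaks and the ACBI1 lists 22115 to 27659. The read depth is unknown, and an unlisted peak is not a measurement of closed chromatin.

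ACBI1 is a PROTAC, a molecule that links a target to a ubiquitin ligase, and it degrades SMARCA2, SMARCA4 and PBRM1. SMARCA2 and SMARCA4 are the alternative ATPases of the SWI/SNF (BAF) complexes, which slide and evict nucleosomes, and PBRM1 is a subunit of the PBAF form. Accessible sites away from promoters are often enhancers, where transcription factors such as AP-1, the dimers of FOS and JUN proteins, and TEAD, the DNA-binding partners of YAP and TAZ, are known to recruit SWI/SNF complexes. Protein levels were not analysed here.

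The DNA sequence of members was read where a member held an annotated start. RefSeq lists 300-base windows around transcription starts (250 bases before to 50 after the start), including starts of long non-coding RNAs (lncRNAs) and internal starts of protein-coding genes, which the distal rule does not remove. Of the 7060 members, 147 (2.08%) overlapped such a window, against 1335 (23.1%) of the 5779 distal regions retained in all 8 lists. A whole window lay inside 73 members, 58 from lncRNAs and 15 from protein-coding genes. Of the 8 eligible windows with the strongest DMSO peaks by −log10 q rank, 4 held the AP-1 letters TGANTCA. Those 4 are shown first and 1 without the letters last, 5′ to 3′ on the gene's strand from the RefSeq table of GRCh38.p14, with TGANTCA in capitals.
LOC107986091 (minus strand, chr3:58214649-58214948): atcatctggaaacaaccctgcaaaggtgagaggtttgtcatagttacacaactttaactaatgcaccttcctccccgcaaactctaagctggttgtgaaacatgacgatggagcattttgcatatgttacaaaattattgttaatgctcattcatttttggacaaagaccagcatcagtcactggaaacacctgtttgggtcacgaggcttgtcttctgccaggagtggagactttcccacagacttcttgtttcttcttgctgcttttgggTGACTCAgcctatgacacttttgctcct
LOC105375284 (minus strand, chr7:54995988-54996287): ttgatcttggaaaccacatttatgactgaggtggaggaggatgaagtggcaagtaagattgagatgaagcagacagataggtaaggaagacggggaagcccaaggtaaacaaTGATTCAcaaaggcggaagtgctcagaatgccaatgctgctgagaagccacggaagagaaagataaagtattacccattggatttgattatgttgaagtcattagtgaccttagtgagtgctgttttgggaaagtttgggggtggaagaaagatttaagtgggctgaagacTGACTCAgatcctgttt
DCLK1 (minus strand, chr13:35855618-35855917): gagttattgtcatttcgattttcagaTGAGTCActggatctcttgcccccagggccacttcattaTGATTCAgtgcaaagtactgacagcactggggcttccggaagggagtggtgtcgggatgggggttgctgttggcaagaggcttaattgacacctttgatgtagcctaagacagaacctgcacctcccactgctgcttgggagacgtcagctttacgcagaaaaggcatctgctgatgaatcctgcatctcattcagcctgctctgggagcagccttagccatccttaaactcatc
SERPINB7 (plus strand, chr18:63775168-63775467): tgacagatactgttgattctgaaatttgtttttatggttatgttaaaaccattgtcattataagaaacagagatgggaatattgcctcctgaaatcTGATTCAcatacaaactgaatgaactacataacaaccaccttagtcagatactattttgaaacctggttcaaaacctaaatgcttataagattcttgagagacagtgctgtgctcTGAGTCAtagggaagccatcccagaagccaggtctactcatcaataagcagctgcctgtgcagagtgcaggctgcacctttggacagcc
TRD-AS1 (minus strand, chr14:22432704-22433003): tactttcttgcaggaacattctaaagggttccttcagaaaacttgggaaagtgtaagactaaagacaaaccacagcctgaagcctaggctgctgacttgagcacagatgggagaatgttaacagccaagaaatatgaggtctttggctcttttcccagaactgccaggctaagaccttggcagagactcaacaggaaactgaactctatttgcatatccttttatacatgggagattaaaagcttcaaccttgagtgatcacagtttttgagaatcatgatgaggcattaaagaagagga

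The member at LOC105375284, an lncRNA start 22459 bp from EGFR, the epidermal growth factor receptor gene, held 2 copies of the letters. The fold enrichment given by the authors was 7.89 and 7.59 for H1975 with DMSO and 6.89 and 6.14 for HCC44 with DMSO. The window of DCLK1, a microtubule-associated kinase, is an internal start of that gene and held 2 copies, with fold enrichments of 9.54, 9.87, 7.72 and 6.62 in the same order. The window of SERPINB7, a serine protease inhibitor of the serpin family, is also an internal start and held 2 copies, with fold enrichments of 11.7, 11.1, 8.77 and 6.87. The member at LOC107986091 lay 3550 bp from DNASE1L3, a secreted DNase, and had fold enrichments of 5.88, 6.85, 6.28 and 5.74. In TRD-AS1, the antisense transcript of the T cell receptor delta locus, the fold enrichments were 10.4, 9.87, 5.29 and 5.57.

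AP-1 letters were frequent in the start windows inside members. TGANTCA, which is its own reverse complement, was found in 37 of 73 windows (50.7%, 95% Wilson interval 39.5% to 61.8%). It was found in 128 of the 1520 windows inside distal retained regions (8.42%) and in 7.69% of all 34789 RefSeq start windows on these chromosomes. Intervals cover counting error only, and windows are not replicates, so no test was made. The TEAD letters GGAATG, searched on both strands as were all motifs, were in 26% of windows in members, in 11.4% of those in distal retained regions and in 14.1% of all. The RUNX letters TGTGGTT were in 12.3%, 3.22% and 4.28%, and the forkhead letters TGTTTAC in 13.7%, 2.76% and 3.42%. The order was the opposite for the SP/KLF letters GGGCGGG, which bind factors of GC-rich promoters: 6.85%, 53.2% and 33.1%.

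Base composition moved with these shares. The median GC content of the windows was 48% in members and 67% in distal retained regions, and a reordering of the AP-1 letters, ATGNCAT, used as a control, was also found more often in members (8.22%) than in distal retained regions (1.25%), with 5.02% over all starts. Among windows of 40% to 55% GC, the AP-1 letters were in 48.9% of 45 windows in members, in 24.6% of 207 in distal retained regions and in 12.3% of all such windows, while the control letters were in 8.89%, 4.83% and 8.54%. For TEAD letters the windows of that GC content were close together, with 24.4%, 19.3% and 19.98%. For RUNX letters the shares were 15.6%, 7.25% and 6.84%, and for forkhead letters 15.6%, 7.73% and 5.11%, each from 7 of the 45 windows in members. SP/KLF letters were then in 0 of 45, in 17.4% and in 6.60%. When only lncRNA windows of that GC content were kept, the AP-1 share was 47.2% of 36 in members and 37.5% of 80 in distal retained regions, and the intervals of 32.0% to 63.0% and 27.7% to 48.5% overlapped. All lncRNA starts of that GC content held the letters in 13.8%. The AP-1 share in members was thus several times that over all starts in each of these groups of windows, while its distance from distal retained regions depended on which windows were compared. Windows in the 231 gene-boundary regions lost in both lines, 24 in number, held the AP-1 letters in 45.8%, against 3.58% of the 10678 windows in retained gene-boundary regions. Of the other motifs searched, the C/EBP (TTGCNNAA), E-box (CAGCTG) and NFI (TTGGCA) letters were in 11.0%, 21.9% and 17.8% of windows in members, against 10.5%, 17.9% and 12.6% of all starts. The ETS (CCGGAAG), CTCF and ISRE letters were in 4.11%, 2.74% and 4.11%, against 10.2%, 2.42% and 3.57% of all starts. The NRF1, NF-kB and CRE (TGACGTCA) letters were in 0 of 73, which leaves a Wilson upper limit of 5.00% each, against 5.75%, 1.92% and 1.84% of all starts. No searched motif contains another, and a match is a run of letters, not a measured binding site.

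**Figure D1:**
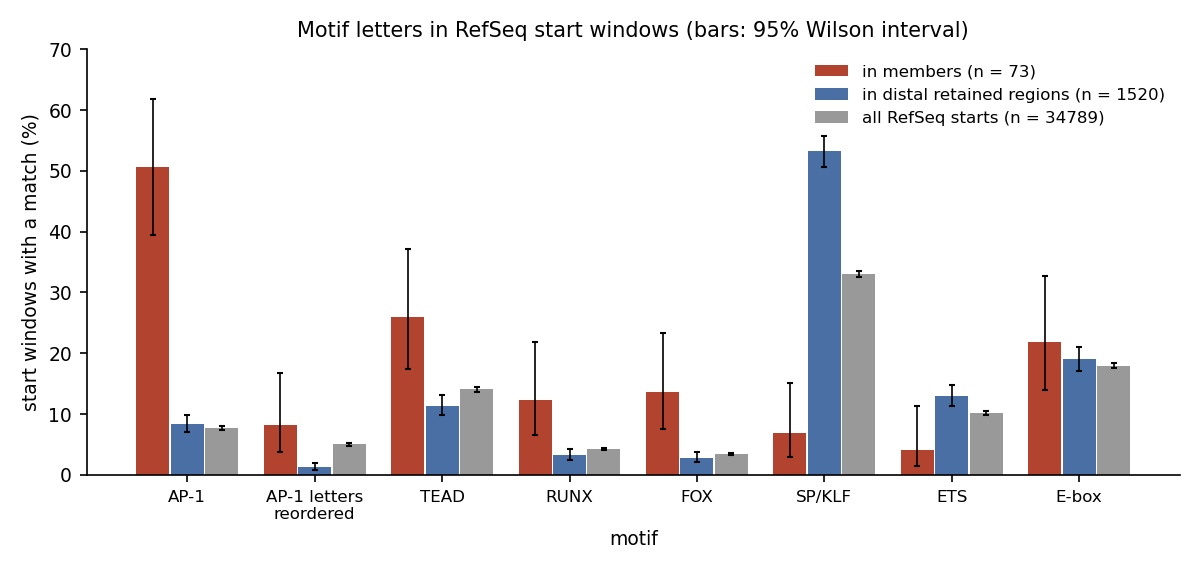
Share of 300-base RefSeq start windows with a match to the letters of each motif (vertical axis, percent; horizontal axis, motif), for 73 windows inside members, 1520 inside distal retained regions and all 34789, with 95% Wilson intervals as error bars. AP-1 letters stand at 50.7% in members, and SP/KLF letters at 53.2% in distal retained regions.

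Distal and gene-boundary regions were distributed differently over the number of ACBI1 lists that kept a peak. Of the distal regions, 7060 had a peak in 0 ACBI1 lists, 2140 in 1, 2488 in 2, 1430 in 3 and 5779 in all 4. Of the gene-boundary regions, 91.2% had one in all 4. The regions just outside the rule, with a peak in 1 ACBI1 list, owed it mostly to a single sample: in 1667 of the 2140 (77.9%) the peak was in H1975 ACBI1 replicate 1, the longer of the 2 ACBI1 lists of that line. There it ranked low, with a median at the 15th percentile of −log10 q of that list. The median region width was 643 bp for members, 765 bp with 1 ACBI1 list and 1093 bp for distal retained regions. A merged region spans all its peaks, so its width can grow with the number of lists that have one. At the other edge of the rule, 160 members lay within 2 kb of a gene end and the nearest at 1002 bp.

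**Figure D2:**
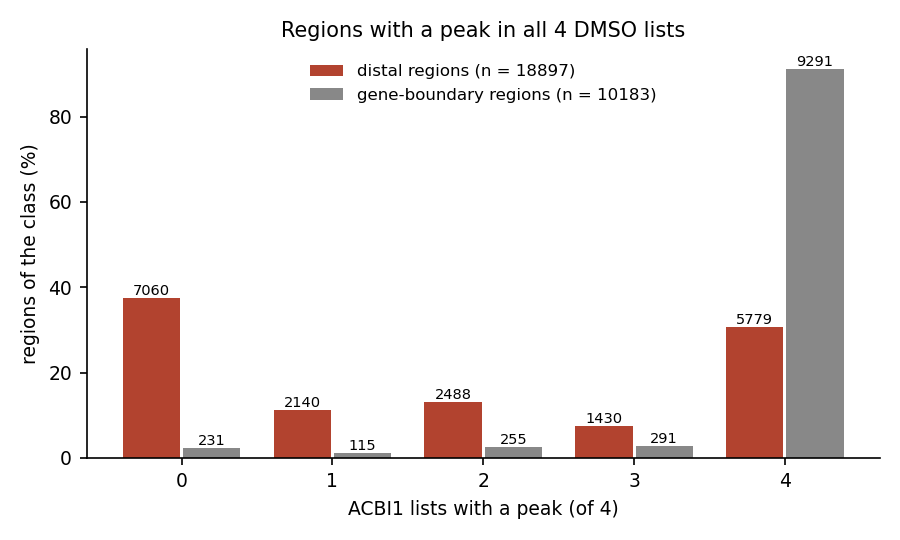
Share of regions with a peak in all 4 DMSO lists (vertical axis, percent of the class) by the number of ACBI1 lists with a peak (horizontal axis), with the number of regions above each bar. Distal regions pile up at 0 and at 4 lists, with 7060 and 5779 regions, and gene-boundary regions at 4 lists, with 9291.

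A list that took no part in the choice gave a check of the listing. When members were chosen from the other 7 lists, a peak was present in the left-out DMSO list for 94.3% and 84.3% in H1975 (replicates 1 and 2) and for 94.3% and 89.8% in HCC44. In a left-out ACBI1 list it was present for 19.1% and 1.13% in H1975 and for 3.46% and 1.97% in HCC44. The left-out DMSO values all lay above the left-out ACBI1 values, and H1975 ACBI1 replicate 1 stood apart from the other ACBI1 samples. Without that sample the rule gave 8730 members. For distal retained regions chosen the same way, the left-out list held a peak for 88.3% to 99.4%. The lines could also be read against each other. Of the distal regions lost in H1975 alone by the same rule that had peaks in both HCC44 DMSO lists, 7309 of 8149 (89.7%) had none in either HCC44 ACBI1 list. These 8149 were 59.1% of the 13781 lost in H1975, and of regions retained in H1975 20.6% were lost in HCC44. In the other direction it was 7066 of 10486 (67.4%), which were 49.4% of the 21222 lost in HCC44, against 6.50% of regions retained in HCC44. Of the 10486, 1664 (15.9%) kept a peak in both H1975 ACBI1 lists.

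Members were narrow peaks that ranked lower by significance and higher by fold enrichment than distal retained regions. The median percentile of −log10 q within its list was 39.97 and 35.4 in the H1975 DMSO samples and 52.6 and 53.4 in the HCC44 DMSO samples. For distal retained regions it was 66.6, 64.6, 71.4 and 70.5 in the same order. By the authors' fold enrichment the order was reversed, with medians at percentiles 57.4, 53.6, 61.2 and 59.1 for members and 49.7, 50.1, 48.1 and 44.2 for retained regions. The median listed length was 419, 364, 547 and 550 bp in members and 797, 739, 907 and 914 bp in retained regions, again in that order. In 98.3% of members each DMSO list held exactly 1 peak. Few members were among the most significant peaks: 27 (0.382%) lay in the strongest quintile by −log10 q of all 4 DMSO lists, against 959 (16.6%) of distal retained regions and 7.16% of all distal DMSO regions. List by list, that quintile held 2.15% and 1.66% of members in H1975 and 12.2% and 13.1% in HCC44. The share of distal regions that were members was 54.3% in the weakest quintile by mean DMSO percentile of −log10 q and 8.10% in the strongest, while by fold enrichment it was 31.0% in the weakest quintile and 41.9% in the strongest. All of these values come from lists that the rule used and are a description.

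The position of members in the DMSO lists differed between lines. The median percentile of −log10 q averaged 37.7 ± 3.24 (SD, n = 2) in H1975 and 53.0 ± 0.556 (SD, n = 2) in HCC44, a difference of 15.4 percentile points, with both HCC44 samples above both H1975 samples. Distal retained regions differed by 5.37 points in the same direction. Ranked by fold enrichment, members were 4.69 points higher in HCC44, while distal retained regions differed by −3.75 points, in the opposite direction. These are ranks of peaks that the rule required, in lists that were longer in HCC44, so they are given with no test. Peaks of the HCC44 DMSO lists had a smallest width of 251 and 265 bp, against 191 and 177 bp in H1975, and the part of this in the differences was not tested.

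**Figure D3:**
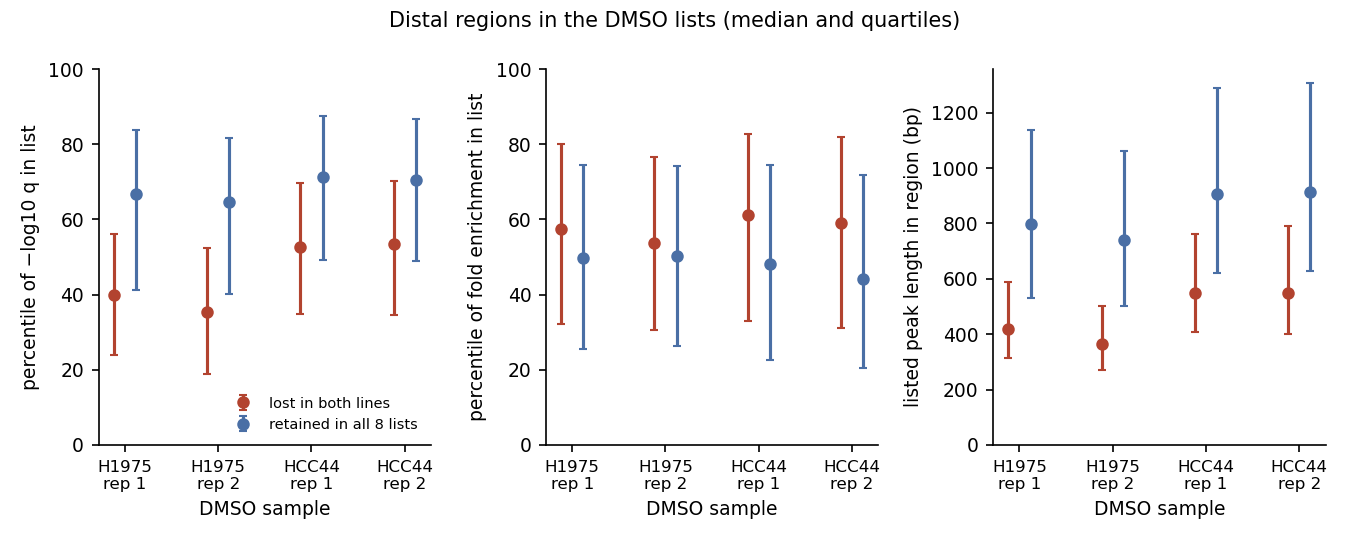
Median and quartiles over regions in each DMSO sample (horizontal axis) of the percentile of −log10 q within its list, the percentile of fold enrichment within its list, and the listed peak length in bp (vertical axes), for distal regions lost in both lines and for those retained in all 8 lists. Members lie lower by −log10 q and length and higher by fold enrichment in all 4 samples.

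Loss was listed more often farther from gene ends, a distance also measured from inside genes. The share of distal DMSO regions that were members was 26.5% at 1 to 5 kb from the nearest protein-coding gene end, 33.2% at 5 to 20 kb, 38.3% at 20 to 50 kb, 43.0% at 50 to 100 kb and 48.8% at 100 to 500 kb. The share retained in all 8 lists went the other way, from 46.0% to 17.4% over the same distances. The median DMSO percentile of −log10 q changed little between these bins, from 53.7 to 55.4, while the median width went from 909 to 758 bp. With regions that overlap a RefSeq start window left out, a choice made after seeing the data, the share lost was 30.2% in the nearest of these bins and 50.9% in the farthest. The median distance to a gene end was 31673 bp for members and 15712 bp for distal retained regions, and 19.5% and 8.27% lay more than 100 kb away. Being inside a gene did not set them apart: 52.6% of members and 50.9% of distal retained regions lay inside a protein-coding gene. Whether a position is exonic or intronic was not analysed here. By chromosome, the share lost was lowest on chromosome 19, with 134 of 671 distal DMSO regions (20%), and highest on chromosome 4, with 305 of 659 (46.3%). These chromosomes have 24.8 and 4.05 protein-coding genes per Mb. Gene density did not order all chromosomes: chromosome 6, with 6.16 per Mb, had 43.5% lost, and chromosome 7, with 5.90 per Mb, had 33.7%.

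**Figure D4:**
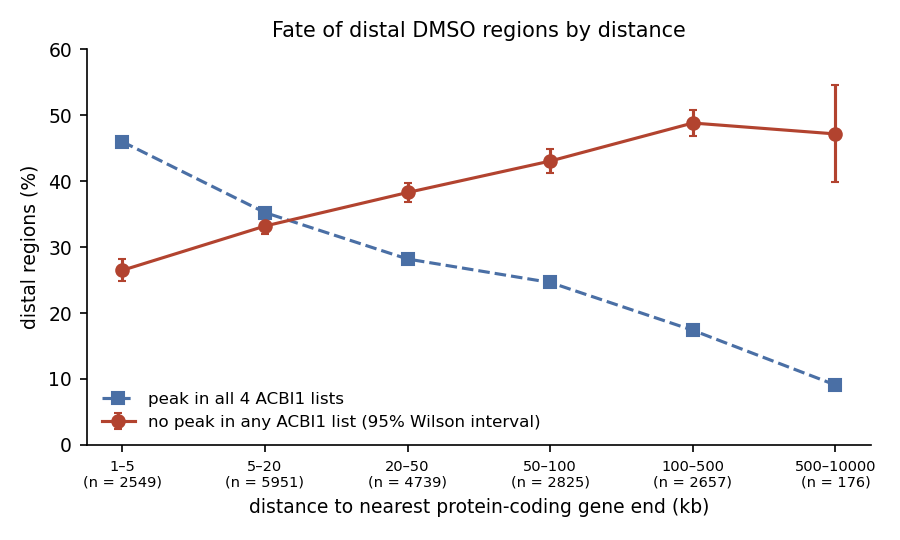
Share of distal DMSO regions (vertical axis, percent) that had no ACBI1 peak or a peak in all 4 ACBI1 lists, by distance to the nearest protein-coding gene end in kb (horizontal axis, unequal bins, with the number of regions). The share lost goes from 26.5% at 1 to 5 kb to 48.8% at 100 to 500 kb; the last bin, with 176 regions, has a wide interval.

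Members were spread over many genes. They had 4230 different nearest protein-coding genes, of which 2699 were nearest to 1 member only and 668 to 3 or more. The 20 genes nearest to the most members are given with the number of their distal DMSO regions. TLE1, a Groucho-family corepressor, was nearest to 11 members of 13 distal DMSO regions, with 1 retained in all lists. From the gene to its outermost member, the DMSO lists held 25 and 22 peaks in H1975 and 25 and 21 in HCC44, and the ACBI1 lists 3 and 3, and 3 and 4. HIVEP3, a zinc finger factor, had 10 members of 18 regions, and FOXP1, a forkhead factor, 9 of 15. CREB5, a bZIP transcription factor, had 8 of 11, and MED27, a Mediator subunit, 9 of 10. The corepressor genes BCOR and TBL1XR1 had 8 of 15 and 8 of 19, and ATXN1, which encodes the polyglutamine protein ataxin-1, had 8 of 16.

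LPP, a LIM protein of focal adhesions, had 9 members of 14 distal DMSO regions. Around it, the DMSO lists held 22 and 21 peaks in H1975 and 31 and 33 in HCC44, and the ACBI1 lists 4 and 3, and 6 and 4. MYLK, the myosin light chain kinase, had 8 of 12, and SVIL, the actin-binding supervillin, 8 of 13. NAV2, a cytoskeletal regulator of the neuron navigator family, had 10 of 20. JAG1, a Notch ligand, had 8 of 13, none inside the gene, and PSD3, an exchange factor for ARF GTPases, 9 of 13.

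At some genes nearly all distal regions with a peak in all 4 DMSO lists were lost. HS3ST1, a heparan sulfate sulfotransferase, had 9 of 10 regions lost, all outside the gene. The DMSO lists held 13 and 13 peaks there in H1975 and 13 and 12 in HCC44, and each of the 4 ACBI1 lists 1. MAN1A1, a Golgi mannosidase, and RALGPS1, an exchange factor for Ral GTPases, each lost 7 of 7. At MAN1A1 the DMSO lists held 10 and 9 peaks in H1975 and 12 and 10 in HCC44, and each of the 4 ACBI1 lists 1. Other peaks remained at RALGPS1: the DMSO lists held 11 and 11 in H1975 and 18 and 16 in HCC44, and the ACBI1 lists 3 and 2, and 7 and 6. The remaining 3 of the 20 were CMIP with 8 of 12, GSE1 with 8 of 20 and RAD51B, a gene of homologous recombination, with 8 of 21. For GSE1 and RAD51B the share was near that of all distal DMSO regions, 37.4%, so their place rests on how many regions they have. The spans of the 20 genes ran from 36.3 to 863 kb. At each of the 20 genes both DMSO samples of a line listed more peaks than both ACBI1 samples of that line, which the choice of these genes by lost regions favours.

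**Figure D5:**
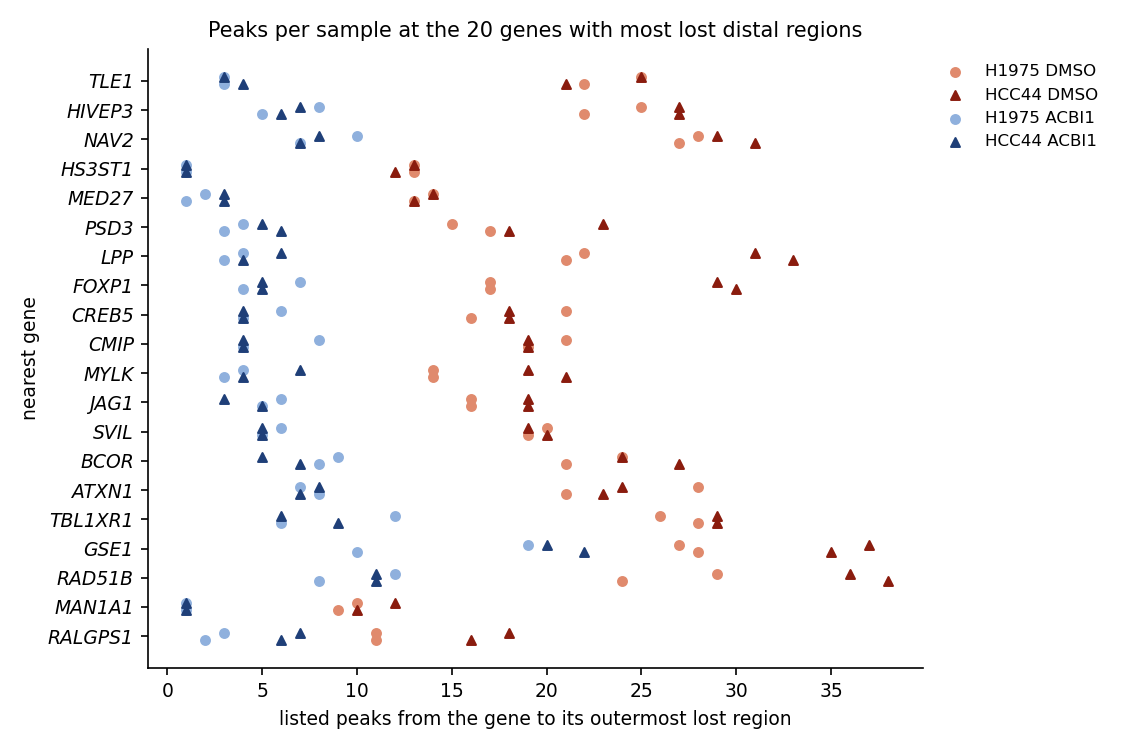
Number of listed peaks (horizontal axis) from the gene to its outermost lost distal region, per sample, for the 20 genes (vertical axis) nearest to the most members; circles are H1975, triangles HCC44, with 2 replicates each. At TLE1 the DMSO samples sit between 21 and 25 and the ACBI1 samples between 3 and 4.

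The densest windows of 100 kb held 6 members each, and there were 2 of them. One lay between TAF1L and TMEM215 on chromosome 9 from 32644713 to 32742635, with 10 and 10 peaks in H1975 DMSO, 1 and 0 in H1975 ACBI1, 7 and 8 in HCC44 DMSO and 0 and 0 in HCC44 ACBI1. Another lay inside CMIP on chromosome 16 from 81551166 to 81645689, with 10 and 9, 1 and 1, 9 and 8, and 0 and 0 peaks in the same order. Of the 32 separate windows with 5 members, the first in genome order lay near RGS1, a regulator of G protein signalling, on chromosome 1 from 192476952 to 192560034. It had 6 and 6, 0 and 0, 8 and 7, and 1 and 0 peaks. The longest runs of neighbouring distal DMSO regions that were all members had 10 regions, and there were 6 of them. One spanned 6575 kb of chromosome 1 with BRINP3, KCNT2, RGS1 and RGS13 as nearest genes, and another 842 kb of chromosome 6 at CDYL, LYRM4 and FARS2. Most runs were short, since 2468 members had no member beside them. The region after a member was itself a member in 36.7% at gaps under 5 kb and in 41.9% at gaps of 5 to 20 kb, against 34.0% and 32.0% after a distal DMSO region that was no member. At the 3 wider ranges of gaps it was 40.01% to 46.0% against 34.7% to 40.2%. In each ACBI1 sample, between 9.24% and 12.5% of members had some ACBI1 peak within 5 kb, and between 64.6% and 72.8% within 50 kb.

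The 10 members with the strongest DMSO peaks by −log10 q rank were 338 to 887 bp wide, and 4 lay inside protein-coding genes. The first was on chromosome 8 from 127339879 to 127340765, 72682 bp from POU5F1B, with fold enrichments of 7.27 and 8.25 in the H1975 DMSO samples and 5.80 and 4.68 in the HCC44 DMSO samples. The second, on chromosome 16 from 86951797 to 86952610, lay 350204 bp from C16orf95 and had 8.74, 8.42, 6.50 and 5.85. The third, on chromosome 3 from 127525411 to 127525760, lay 45472 bp from TPRA1 and had 11.1, 10.9, 8.74 and 7.64. One on chromosome 3 from 172550498 to 172550851 lay 27068 bp from TNFSF10, the death ligand TRAIL, with 8.88, 10.1, 8.52 and 7.04. The others were nearest to CTXND2, RSPRY1, MFSD1, MYC, ANKEF1 and RAD51B. Hairpins of 4 microRNAs lay in 4 of the 7060 members, MIR7844 near TMCC3, MIR5093 in GSE1, MIR4276 near HPGD and MIR587 near QRSL1. In distal retained regions, 28 hairpins lay in 27 of 5779. Those regions were wider and overlapped annotated starts more often, so the counts are not a like comparison.

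Gene groups were compared by the share of their distal DMSO regions, within 50 kb of a gene of the group, that were members. Over all distal DMSO regions it was 37.4%, and 33.3% of all protein-coding genes had a member within 50 kb. Among the 15822 such regions within 50 kb of any protein-coding gene it was 35.6%. The interval of none of the 10 groups lay wholly above that value. Only that of the housekeeping genes lay wholly below it, and barely, with an upper limit of 35.591% against 35.596%. The lung and epithelial markers had 18 of 47 regions lost (38.3%, 95% Wilson interval 25.8% to 52.6%), and the STING and interferon genes, which the series title points to, 8 of 22 (36.4%, interval 19.7% to 57.0%). The YAP and TEAD factors and targets had 17 of 52 (32.7%), the mesenchymal and matrix genes 17 of 55 (30.9%), the NF-kB and cytokine genes 9 of 30 (30%) and the EGFR ligand and MAPK feedback genes 15 of 60 (25%, interval 15.8% to 37.2%). The SWI/SNF subunits had 11 of 45 (24.4%). The lowest shares were those of the AP-1 factor genes, with 10 of 45 (22.2%, interval 12.5% to 36.3%) and 27 retained, and of the housekeeping genes, with 5 of 28 (17.9%, interval 7.88% to 35.6%). Within 100 kb the shares were 28.4% for AP-1 factor genes, 30.8% for the EGFR and MAPK group and 17.0% for housekeeping genes, against 36.2% near any gene. With a minimum −log10 q of 20 they were 24.3%, 33.3% and 33.3% in the same order, against 44.6% of all distal DMSO regions. The low place of the housekeeping genes among the groups thus depended on the weaker peaks. The blood cell markers, a check for other cells, had 1 of 4.

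Within the groups, losses were uneven between genes. ITGA2, the collagen-binding integrin alpha subunit, had 4 of 6 regions lost and 0 retained in all lists. Within 50 kb of it, the DMSO lists held 10 and 10 peaks in H1975 and 10 and 8 in HCC44, and the ACBI1 lists 4 and 3, and 3 and 3. NFKBIA, the NF-kB inhibitor, had 4 of 8 lost, with 10 and 10 peaks in H1975 DMSO, 5 and 3 in H1975 ACBI1, 10 and 10 in HCC44 DMSO and 5 and 3 in HCC44 ACBI1. Of the AP-1 family, BATF3 had 4 of 6 lost and ATF3, its neighbour on chromosome 1, 4 of 10, so that some regions count for both. FOSL2 had 2 of 4, JUN and MAFF 1 of 3 each and FOSL1 1 of 2. No region was lost at FOSB, where all 6 were retained, at MAFK (5 regions), JUNB (4), FOS, JUND or BATF (2 each). TEAD1 had 3 of 8 and LATS2, a kinase upstream of YAP, 3 of 5. CD274, which encodes PD-L1, had 3 of 3, MX1, an interferon-induced GTPase, 2 of 3 and IRF1 1 of 3. SFTPC, the surfactant protein C gene, had 3 of 3, SFTPB 4 of 7 and CDH1, which encodes E-cadherin, 3 of 5. Losses were fewer at the keratin genes KRT8 with 1 of 9, KRT18 with 1 of 6 and KRT19 with 1 of 4, and at the epithelial factor ELF3 with 1 of 5, while KRT7 had 3 of 9 and NKX2-1 0 of 1. SMARCA4, a target of ACBI1, had 3 of 6, PBRM1 1 of 2 and SMARCA2 none. As a check of the labelled tissue, 11 of the 15 lung and epithelial markers, EPCAM, KRT8 and KRT18 among them, had a gene-boundary peak in all 8 lists. So did 14 of 18 mesenchymal and matrix genes, 11 of 12 housekeeping genes, 12 of 22 STING and interferon genes and 1 of 7 blood cell markers. A high count was thus not particular to lung and epithelial markers. NKX2-1, the lung lineage factor, had such a peak in all 4 H1975 lists but in HCC44 only in DMSO replicate 2. Of the blood cell markers, CD14 had one in all 8 lists, CD3E in 3 DMSO lists, and PTPRC, MS4A1, CD79A and NKG7 in 0.

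Peaks at the ends of the nearest genes took no part in the rule and were compared between treatments. Of the 4230 genes nearest to members, 70.3% and 70.2% had a boundary peak in the H1975 DMSO samples and 69.1% and 66.7% with ACBI1, and in HCC44 74.4% and 74.3% with DMSO and 69.3% and 68.7% with ACBI1. Both ACBI1 samples lay under both DMSO samples in each line. The mean difference over both lines was −3.80 percentage points, −2.32 in H1975 and −5.28 in HCC44 (exact permutation test, two-sided, labels permuted within lines, p = 0.0556, the smallest that 36 arrangements can give). Over all 19974 protein-coding genes it was −2.87 points, and at genes nearest only to distal retained regions −3.75 points (exact permutation test, two-sided, p = 0.0556 for each). The difference between genes nearest to members and all genes changed by −0.930 points, with p = 0.0556 in the same exact permutation test. Genes nearest to members were chosen with the treatment labels, and the permutation kept that choice fixed. Their p-values do not allow for the choice. The change of −3.75 points at genes nearest only to distal retained regions was close to the −3.80 points at genes nearest to members. The change did not keep its sign when the lists were shortened to equal lengths by −log10 q: the change at genes nearest to members was then 9.80 points. Counted per gene, 2635 of 2829 genes nearest to members with a boundary peak in all 4 DMSO lists kept it in all 4 ACBI1 lists (93.1%), against 94.1% of the 8415 other such genes. Genes with many lost distal regions could keep their boundary peaks: TLE1, FOXP1, LPP, JAG1 and MAN1A1, with 7 to 11 lost regions each, had a boundary peak in all 8 lists.

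The number of members depends on the list lengths. With each list shortened to its 22115 strongest peaks by −log10 q, 1542 distal regions were lost in both lines, 24.2% of those with a peak in all 4 DMSO lists. The share of start windows with AP-1 letters was then 54.5% of 22 in members and 8.74% of 973 in distal retained regions.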

How the data were processed

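Peaks were taken from the 8 lists that the authors deposited, 1 per sample, so replicates were not pooled. The lists follow the broadPeak layout without a header. By that layout the columns were read as fold enrichment, taken as the authors' ratio of a peak to the caller's background, and as −log10 p-values and q-values. This reading is an assumption. The submitters' processing notes name BWA and the build hg38. The peak caller and filters are not given in the sources used here. No list held a −log10 q under 10.0. Values of −log10 q scale with how deeply a library was sequenced, so regions were ranked by percentiles within a list. Fold enrichments were ranked in the same way. Those printed for single regions are as deposited and were not adjusted between samples.

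The members, gene lists and tests were chosen with earlier results of these data known. Gene positions and start windows came from RefSeq tables of GRCh38.p14, and no genome sequence was used, so motifs were searched only in start windows. All 154 gene entries of the fixed lists matched that table by symbol. Named genes were the 20 nearest to the most members (ties by share lost, then symbol), the genes of the fixed lists, and the 10 members with the highest mean −log10 q percentile in DMSO with the densest windows of 100 kb. Within each comparison, the few examples given from the lists and the printed sequences were chosen after values were seen, the sequences among start windows outside chromosome 8. Replicate numbers were checked for pairing. Other settings were a minimum −log10 q of 20, equal list lengths, merging over gaps of 1000 bp, boundaries of 5 kb or of all annotated genes, neighbourhoods of 100 kb, a replicate block and leaving out each sample. The work was done in numpy 2.4.6, pandas 2.3.3, scipy 1.17.1 and matplotlib 3.10.9 under Python 3.11.15, and the functions were tested on simulated data.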

Additional observations from a re-analysis of the deposited data

How the results depend on the processing

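Of 78 values for 19 results under other settings, 65 were counted as kept and 1 reversed. Differences between lines or treatments counted as kept by sign alone, and the number of regions by a fixed ratio. Other values counted as kept within the interval or SD of the main setting. Intervals of the gene groups were wide: the housekeeping share, 17.9%, was 33.3% with a minimum −log10 q of 20 and counted as kept. A replicate block leaves the value itself unchanged, so it always counted as kept. The line difference in DMSO rank, 15.4 points, was 4.69 points when ranked by fold enrichment and still counted as kept. With lists shortened to equal lengths, the number lost was 1542, the percent lost 24.2%, the share inside a gene 49.5%, the mean listing in left-out DMSO samples 85.0% (90.7% with full lists), and the boundary peak share of the nearest genes 9.80 points higher with ACBI1; the cause was not tested. With a minimum −log10 q of 20 the percent lost was 44.6%, the median width 680.5 bp and the share at blood cell markers 0%. The percent lost was 39.1% with a boundary of 5 kb and 39.9% with the boundaries of all annotated genes, where 54.1% of members lay inside a gene. The AP-1 difference from distal retained windows, 42.3 points, was 24.3 points at 40% to 55% GC and 9.72 points for lncRNA starts of that GC content, both chosen after seeing the data.

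Leaving out each sample in turn gave 7141 to 8730 lost regions, 37.8% to 46.2% lost, a median width of 570 to 666 bp, 51.9% to 53.0% inside a gene, boundary changes of −4.61 to −3.22 points, line differences of 12.5 to 18.3 percentile points and AP-1 differences of 39.8 to 44.6 points. Equal replicate numbers deviated together by 0.311 (Pearson r across regions) in H1975 and 0.137 in HCC44 but by 0.00468 to 0.0387 between lines. The labels do not say what a shared number marks, so pairing was not settled. With a replicate block the boundary change was −3.80 points (exact permutation test, p = 0.125) and the line difference 15.4 points. AP-1 letters in whole regions and in central windows were not run, since no genome sequence was used. Depth is unknown, so weak peaks missed in short ACBI1 lists cannot be told apart from closed sites.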

Other observations

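AP-1 letters were also frequent in start windows inside distal DMSO regions that kept a peak in some ACBI1 lists. TGANTCA was in 55.1% of 49 windows in regions with a peak in 1 ACBI1 list, in 33.7% of 86 with 2 and in 34.2% of 76 with 3. At least 2 copies were in 9 of the 73 windows in regions lost in both lines and in 16 of 1520 in distal retained regions. These counts were made after the data were seen and carry no test.

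Of the 12880 protein-coding genes with a distal DMSO region within 50 kb, 51.6% had a member there, and 1955 had every such region among those lost in both lines. Among all distal DMSO regions within 50 kb of a protein-coding gene, 35.6% were members. The number of regions per gene was not taken into account, so a gene with a single such region counts when that region was lost.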
